A study of Hymenochirus boettgeri with 8 samples.

Results

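Genes whose RNA was high in tail bud embryos and low both before and after were described in Hymenochirus boettgeri, a dwarf clawed frog related to Xenopus. They were 113 of the 145306 assembly genes in the study's expression table. They were chosen by their measured levels: TPM was summed over the transcripts of an assembly gene, and both stage 26 libraries had to hold at least 10 TPM and at least 4 times the highest of the other 6 libraries. TPM is the share of a transcript in the RNA of a library, scaled for transcript length. The peak at stage 26 is therefore set by the choice and is given as a description, without a test. The study measured poly-A RNA in whole wild-type animals at 4 stages, with 2 libraries each: unfertilized egg, 8-cell stage, NF stage 26 (on the Nieuwkoop and Faber scale of Xenopus development) and swimming tadpole. The number of animals or clutches behind a library is not given in the sources used here, so the spread behind the p-values below is that between these libraries and may be technical.

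In frogs, the egg and the first cleavages run on RNA that the mother stored, and the embryo's own genes are switched on at the mid-blastula stage. By the early tail bud the neural tube has closed, somites are forming along the trunk, and the cement gland and hatching gland are differentiating. Several embryonic structures and regulators of that period are transient, and their RNA is low again in a feeding or swimming larva. The table does not pair its identifiers with gene names or sequences, so the genes are described by their levels, transcripts and assembly components, and only a few are given by identifier. The labelled stages could not be checked against marker genes for the same reason. In whole embryos, fewer cells of a type and less RNA per cell cannot be told apart.

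The 113 genes were 1.39% of the 8116 assembly genes that reached 10 TPM in both stage 26 libraries. The gene closest to the limit from inside held 13.8 and 10.6 TPM at stage 26 and at most 2.60 TPM elsewhere, a factor of 4.09. The closest from outside held 28.5 and 13.1 TPM at stage 26 and at most 3.27 TPM elsewhere, a factor of 3.99. A further 65 genes lay between a factor of 3 and that limit, so the group is the upper end of a continuous range. At the limit of 10 TPM, the lowest stage 26 value inside was 10.05 TPM and the highest outside was 9.97 TPM. Libraries differed in how many genes they detected: assembly genes at 1 TPM or more numbered 33556 and 48471 in the egg libraries, 48678 and 53947 at the 8-cell stage, 92680 and 67206 at stage 26, and 82099 and 93289 in tadpoles. Their read totals are unknown.

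As a group, the 113 genes held over 1% of the RNA at stage 26 and far less at every other stage. Their summed share was 1.26% in stage 26 replicate 1 and 1.32% in replicate 2, a mean of 1.29% ± 0.048 (SD, n = 2). It was 0.0299% and 0.0393% in the egg libraries and 0.0256% and 0.0197% in the 8-cell libraries. In tadpoles it was 0.0782% and 0.109%. The 2 stage 26 libraries were thus alike in this sum, and the tadpole libraries lay above all 4 earlier ones. The median gene stood at 33.1 and 25.4 TPM in the stage 26 libraries and at 2.08 and 2.42 TPM in the tadpole libraries. It was listed at 0 in egg replicate 1 and in both 8-cell libraries, and stood at 0.063 TPM in egg replicate 2.

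**Figure D1:**
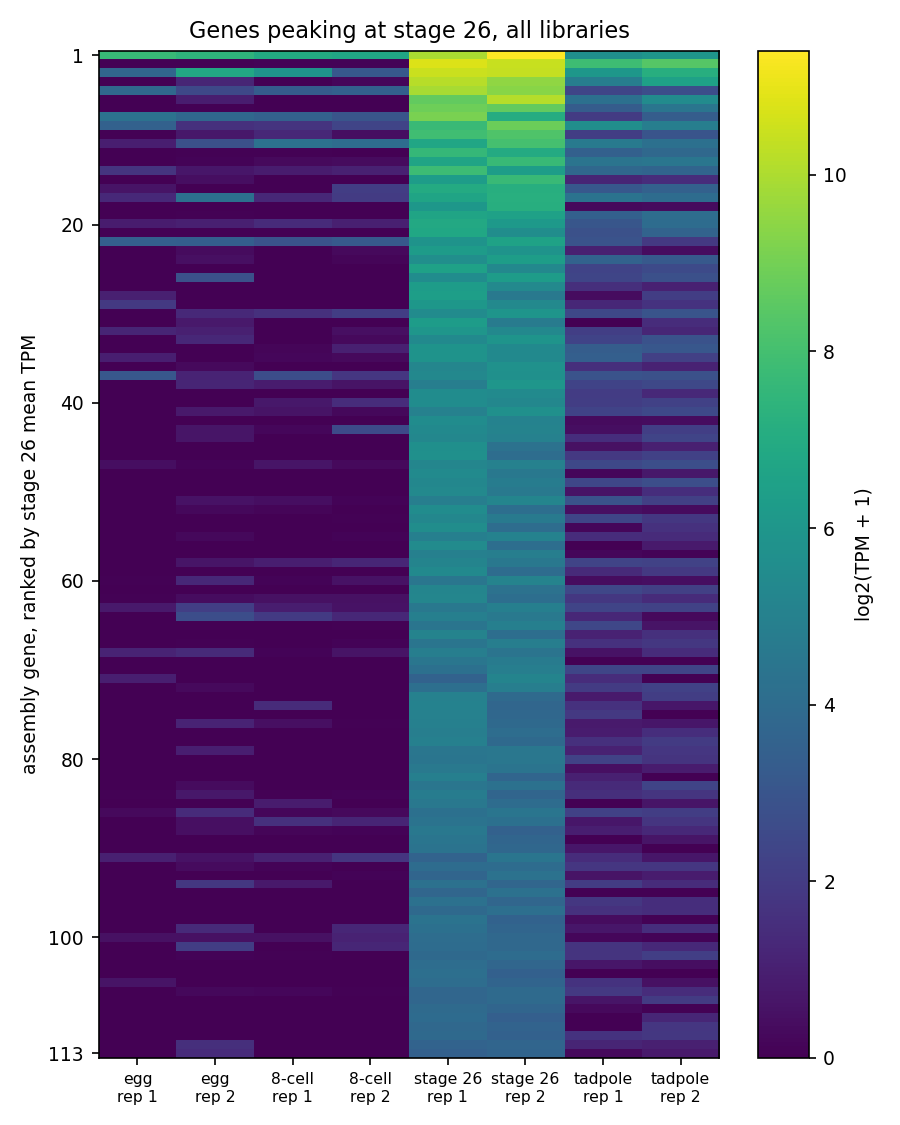
Level of each of the 113 genes (rows, ranked by mean TPM at stage 26) in the 8 libraries (columns), as log2(TPM + 1) in colour. The 2 stage 26 columns are bright by the choice of genes; a few rows near the top, such as the first, are also visible in egg and 8-cell libraries, and the tadpole columns keep more signal than the early ones.

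A small number of genes carried most of the signal. The mean level at stage 26 ranged from 10.96 to 1856 TPM with a median of 29.02 TPM, close to the median of 27.7 TPM over the 8116 genes that reached 10 TPM in both stage 26 libraries. Of the 113 genes, 18 reached a mean of 100 TPM. The 6 most abundant held 54.1% of the group's TPM in stage 26 replicate 1 and 60.5% in replicate 2. Without them the group still held 0.577% and 0.523% of the RNA in the stage 26 libraries, against at most 0.0407% in any other library.

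The most abundant gene, c153003_g1, was also the one with the most egg RNA. It stood at 998 and 2713 TPM in the stage 26 libraries, a mean of 1856 ± 1213 TPM (SD, n = 2). It was at 208 and 172 TPM in eggs, 120.3 and 106 TPM at the 8-cell stage, and 49.7 and 59.9 TPM in tadpoles. Its lowest stage was therefore the tadpole, with both tadpole libraries under all 4 early ones. The next gene, c22243_g1, had the opposite surroundings. It was at 1813 and 1405 TPM at stage 26 and at 230 and 332 TPM in tadpoles, but at no more than 0.086 TPM in any egg or 8-cell library. Of the group, it had the highest tadpole level, and its tadpole mean was still 17.5% of its stage 26 mean.

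The genes that follow in rank showed both kinds of early level. The gene ranked 3 by level held 1441 and 1360 TPM at stage 26, and its early levels scattered widely: 12.7 and 113 TPM in the egg libraries and 58.3 and 7.86 TPM in the 8-cell libraries. The fourth, c11621_g2, held 1161 and 735 TPM at stage 26 and 27.9 and 90.3 TPM in tadpoles, and at most 1.29 TPM in an early library. The only other gene of its assembly component, not a member, did not share this course. That gene held 13.8 to 77.8 TPM early, 500 and 714 TPM at stage 26, and 982 and 552 TPM in tadpoles. The sixth held 399 and 1113 TPM at stage 26 and 17.4 and 44.5 TPM in tadpoles, and was listed at 0 in 3 of the 4 early libraries. In each of these members the stage 26 libraries lay far above the others, as the rule demands, while the 2 stage 26 libraries themselves differed by up to 2.79-fold (the sixth).

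On the log2(TPM + 1) scale the fall after stage 26 was steepest in c109938_g1. Its stage 26 libraries stood at 951 and 655 TPM and its tadpole libraries at 4.18 and 5.52 TPM, a ratio of means of 166 and a difference of 7.09 on the log2(TPM + 1) scale. Before stage 26 it was at 13.5 and 4.49 TPM in eggs and 9.08 and 10.4 TPM at the 8-cell stage, so the tadpole libraries overlapped egg replicate 2 and lay under the other 3 early ones. The next on this scale was c157817_g1, from 65.1 and 141 TPM to 0.223 and 0.260 TPM, a difference of 6.29. By the ratio of means c157817_g1 came first, at 427, another member followed at 222, and c109938_g1 was behind both. A further 3 members were listed at 0 in both tadpole libraries and have no ratio. In the 4 early libraries c157817_g1 was listed at 0 throughout.

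Most members were less extreme. Among the 110 genes above 0 outside stage 26, the lower stage 26 library exceeded the highest other library by a median factor of 6.73. The factor was 10 or more in 38 of the 113 genes, 30 or more in 14 and 100 or more in 6. These counts include 3 genes that were listed at 0 in all 6 other libraries, at 21.5 and 26.2 TPM, 12.6 and 18.04 TPM, and 17.1 and 10.3 TPM in the stage 26 libraries. Since TPM as estimated can be 0 at low depth, these are genes listed at 0, not genes shown to be off.

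**Figure D2:**
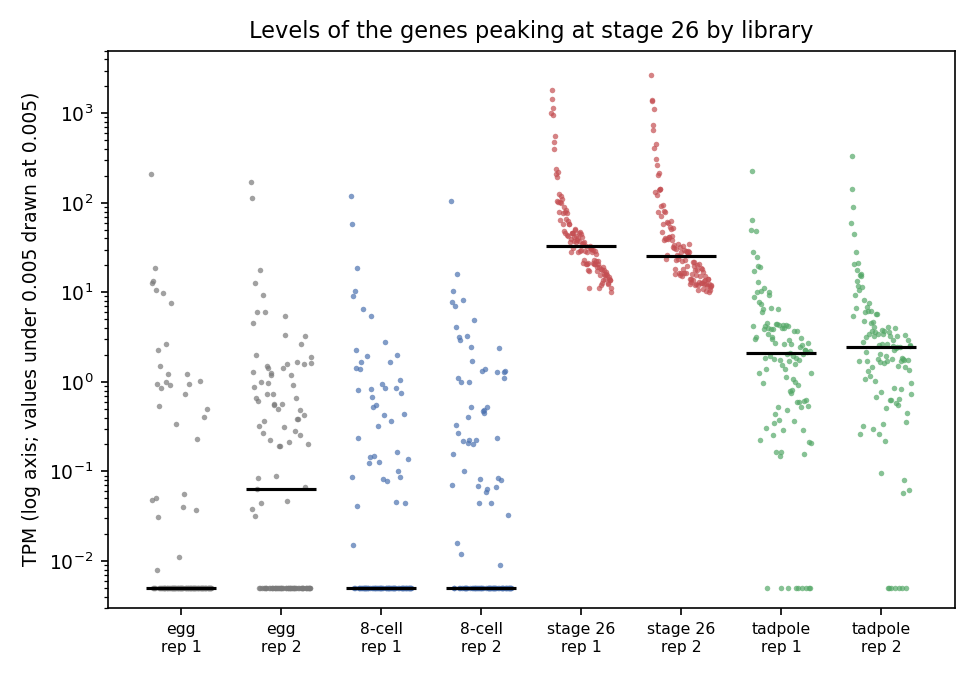
TPM of each of the 113 genes in each library (points, from the highest stage 26 mean at the left of a column to the lowest at its right; log axis), with the median as a bar. Values under 0.005 TPM, which include all zeros, are drawn at 0.005; the medians of 3 early libraries are 0, those of the tadpole libraries are 2.08 and 2.42 TPM and those of the stage 26 libraries 33.1 and 25.4 TPM.

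The 2 stage 26 libraries did not give the same level gene by gene. The lower of 2 values had to pass the rule, which favours genes that are alike in both. Of the 113 genes, 84 (74.3%) lay within 2-fold between the replicates, against 58.4% of the 8116 genes that reached 10 TPM in both. Replicate 1 was the higher for 72 genes and replicate 2 for 41, with a median log2 ratio of 0.25 (SD 0.80), against a median of -0.02 (SD 1.21) over the 8116. The widest gap was in the gene ranked 8, at 554 TPM in replicate 1 and 133 TPM in replicate 2, and 4 genes differed by more than 3-fold. Across the 113 genes the log2 levels of the replicates correlated at r = 0.886, as a description: the genes share their libraries, and the rule bounds both values from below.

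How far the group rests on single libraries was seen by leaving each out of the rule. With stage 26 replicate 1 as the sole stage 26 library, 1428 genes passed, and 113 of them (7.91%) also passed in replicate 2. Replicate 2 lay above the other 6 libraries for 828 of the 1428, and listed 210 of them at 0. With replicate 2 as the sole stage 26 library, 368 genes passed, and 113 (30.7%) also passed in replicate 1, which lay above the other 6 libraries for 289. Leaving out a tadpole library let 190 (without replicate 1) or 247 genes (without replicate 2) pass. Leaving out an egg or 8-cell library let 113 to 120 pass. The number of passing genes thus changed most when a stage 26 or tadpole library was left out. Leaving out 1 early library keeps the other early ones in the rule, so this cannot show how far early levels set membership. The 113 are the genes that passed in all 8 libraries at these limits.

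**Figure D3:**
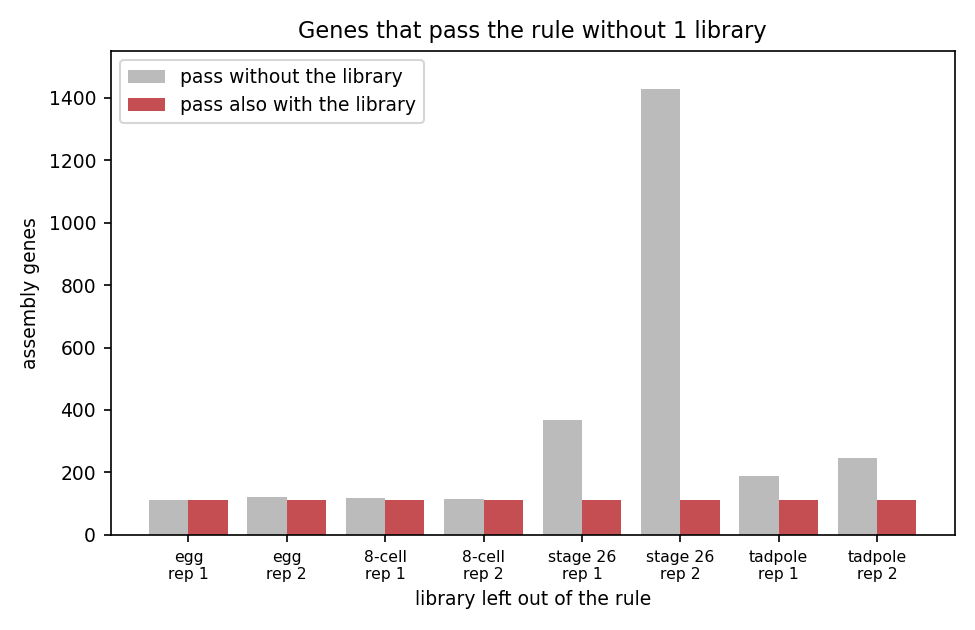
Number of assembly genes that pass the rule when 1 library is ignored (grey), before any limit of 300 genes, and of these the number that pass with that library as well (red, 113 throughout). The largest gap is that for stage 26 replicate 2, with 1428 against 113 genes, followed by stage 26 replicate 1 with 368.

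Before stage 26, most of the group was at or near 0. All 4 egg and 8-cell libraries were under 1 TPM for 74 of the 113 genes, and 39 genes (34.5%) were listed at 0 in all 4. Of the 8116 genes that reached 10 TPM in both stage 26 libraries, 6.55% were listed at 0 in all 4; the rule caps early levels, so a higher share among the members is built in. The early libraries detected unlike numbers of them: 81 members were listed at 0 in egg replicate 1 and 52 in egg replicate 2, and 68 and 60 in the 8-cell libraries. Egg replicate 1 was also the library with the fewest genes at 1 TPM or more, and the part of detection in these zeros was not tested. Poly-A capture takes RNA by its tail, and many stored egg RNAs of frogs have short tails, so a low value in eggs is a low level of captured RNA.

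The rule caps early levels at a fixed part of the stage 26 level, so it allows more early RNA in abundant genes. Only 8 members held at least 1 TPM in all 4 early libraries, and they were among the more abundant, which this cap favours. Their stage 26 means ran from 45.4 to 1856 TPM with a median of 338 TPM, against a median of 25.7 TPM for the 74 genes under 1 TPM early. Together these 8 held a summed mean of 4980 TPM at stage 26, 308 TPM in eggs, 181 TPM at the 8-cell stage and 237 TPM in tadpoles. The gene ranked 22 had the most even early levels, at 9.91 and 9.46 TPM in eggs and 6.47 and 8.14 TPM at the 8-cell stage, and went to 57.9 and 95.6 TPM at stage 26 and 6.55 and 2.76 TPM in tadpoles. The gene ranked 17 was uneven, at 17.8 TPM in egg replicate 2 and between 1.39 and 2.92 TPM in the other 3 early libraries. Between the remaining 31 and the 74 genes the tadpole level, as a share of the stage 26 mean, was alike in the middle: medians of 7.94% and 7.42%, and 6.73% for the 8.

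After stage 26 most members stood above their early level. The highest library outside stage 26 was a tadpole library for 93 genes (82.3%), an egg library for 13 and an 8-cell library for 4. Among the non-members at 10 TPM in both stage 26 libraries, a tadpole library was the highest of the 6 for 57.3%. The rule caps all 6 libraries, and the tadpole libraries detected more genes than the early ones. Nothing is therefore read from this distance. The tadpole mean was 7.47% of the stage 26 mean at the median, with quartiles of 3.12% and 11.9% and a highest value of 19.6%. Both tadpole libraries were at 1 TPM or more for 67 members and at 10 TPM or more for 12, and both were under 1 TPM for 22.

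Tadpoles and 8-cell embryos were also compared. The levels of both stages entered the rule, which caps them without setting their order, and all 113 members passed the filter on low values through stage 26. Members that were at or near 0 early could hardly be called lower: 74 were under 1 TPM in all 4 early libraries and 39 of these were at 0. The counts of members are therefore a description, and nothing is read from their distance to the shares over all genes. The test was limma's two-sided moderated test on log2(TPM + 1), with p-values adjusted by Benjamini-Hochberg over all 119072 assembly genes tested. Of the 113 members, 38 (33.6%) were called higher in tadpoles at an adjusted p under 0.05, where 22.3% of all genes tested were called higher. None was called lower by limma (5.81% of all genes were), nor lower at an unadjusted p under 0.05 (10.2% of all genes). The median change was 1.31 over the members and 0.75 over all genes tested. In a fit to these 2 stages alone, 2 members (1.77%) were lower at an unadjusted p under 0.05 (limma), against 13.7% of all genes. With a pseudocount of 0.1, in a fit to all 8 libraries, 1 member (0.885%) was lower at that limit, against 10.3%. The tadpole and 8-cell libraries did not overlap, with tadpoles the higher, for 86 members (76.1%), against 48.2% of all genes, and with tadpoles the lower for 3 (2.65%), against 22.2%. The called members had tadpole means from 1.92 to 281 TPM and log2 changes from 1.55 to 8.01, and the 75 uncalled ones had a median tadpole mean of 1.32 TPM.

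The largest called rises from the 8-cell stage to the tadpole were those of c22243_g1 and c11621_g2. The former went from 0.086 and 0.070 TPM to 230 and 332 TPM, which is 8.01 ± 0.51 (SE) on the log2(TPM + 1) scale at an adjusted p of 0.00269 by limma. The latter went from 0.015 and 0.157 TPM to 27.9 and 90.3 TPM, which is 5.57 ± 0.74 (SE) at an adjusted p of 0.00586 by limma. Without 8-cell replicate 1 the adjusted p was 0.0592 for the former and 0.0723 for the latter, and without 8-cell replicate 2 it was 0.0647 and 0.0680 (limma). In both, tadpole replicate 2 was the higher and the stages did not overlap. The 3 members with both tadpole libraries under both 8-cell libraries were c153003_g1 (log2 change -1.04, adjusted p = 0.282, limma), c109938_g1 (log2 change -0.88, adjusted p = 0.315, limma) and the gene ranked 100. The spread behind these p-values is shared by all stages. It includes that between the stage 26 libraries, where c153003_g1 stood at 998 and 2713 TPM. The genes of this paragraph were picked by their values, from members that the rule chose with both stages. Their p-values are therefore a description as well.

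Of the 38 called members, 12 were listed at 0 in each of the 4 early libraries and so had no spread there. With all such genes left out of the fit, 19 of the 74 remaining members (25.7%) were called higher, against 9.39% of all genes in that fit. No gene of the whole table was called without 8-cell replicate 1 or without 8-cell replicate 2, and so no member either. In these fits the lone 8-cell library is assumed to vary like the other stages. At an unadjusted p under 0.05, 37 members (32.7%) were higher in tadpoles in each, against 21.1% and 21.5% of all genes. Quantile normalization left 12 members called higher (10.6%, against 9.88% of all genes), and a pseudocount of 5 left 11 (9.73%, against 15.8%). A pseudocount of 0.1 gave 56 (49.6%, against 28.0%). Without tadpole replicate 1 the shares were 22.1% and 20.1%, and without tadpole replicate 2 they were 15.9% and 14.4%. Under quantile normalization the median change of all genes went from 0.75 to 0.075 and that of the members from 1.31 to 0.45, and the calls over all genes went from 26538 higher and 6920 lower to 11766 higher and 9812 lower.

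**Figure D4:**
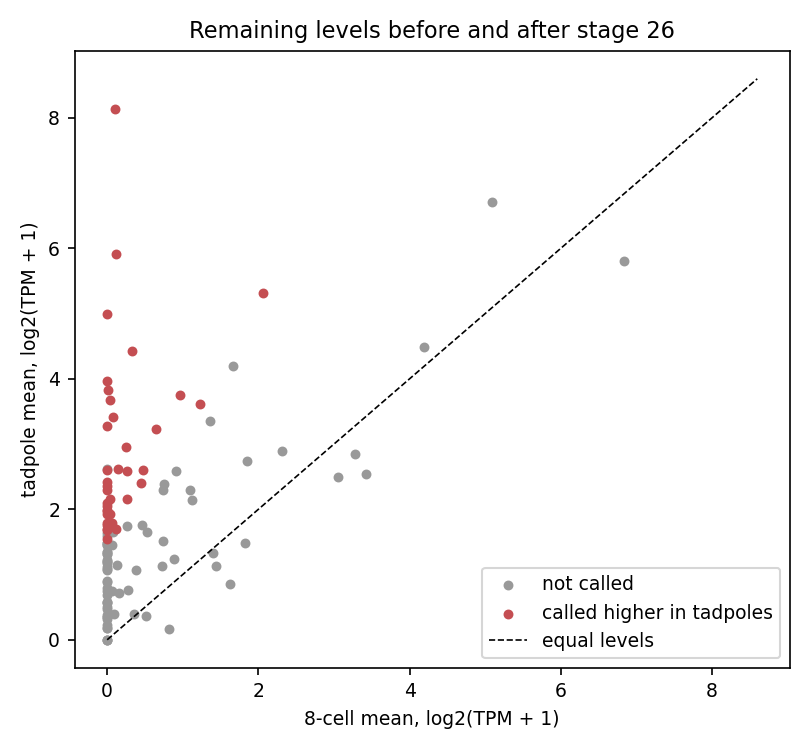
Mean level of each of the 113 genes at the 8-cell stage (horizontal) and in tadpoles (vertical), both as log2(TPM + 1), with the 38 genes called higher in tadpoles in red and equal levels as a dashed line. Most points stand at or near 0 at the 8-cell stage and above the line; 3 genes had both tadpole libraries under both 8-cell libraries, and none was called lower.

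Between 8-cell embryos and unfertilized eggs no member was called by limma, nor was any other gene: the share called was 0% of the 119072 tested. At an unadjusted p under 0.05, 1 member (0.885%) was higher at the 8-cell stage and none was lower, against 5.90% and 0.49% of all genes. With median-of-ratios scaling none was higher and 1 (0.885%) was lower, against 2.83% and 1.40% of all genes. Of the members, 39 were listed at 0 in every egg and 8-cell library and so showed no difference.

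Most members had a single transcript. Of 205 transcripts in all, 67 were the only one of their gene (59.3% of the members), as were those of 51.2% of the 8116 genes that reached 10 TPM in both stage 26 libraries, and the most in a member was 7. For the 46 genes with more, the rule used only the sum, so the split between transcripts was free to vary. The same transcript led in both stage 26 libraries in 36 of the 46 (78.3%), and in 78.0% of the 3911 non-members with 10 TPM in both stage 26 libraries and several transcripts. The leading transcript held a median of 76.0% of the gene's TPM in members and 69.5% in those non-members. In c11621_g2 it held 76.9% and 82.3% of the stage 26 TPM and 82.2% and 85.8% of the tadpole TPM. In c109938_g1 the split was as even at stage 26 (60.1% and 65.7%) as in tadpoles (62.5% and 58.4%), so both of its transcripts peaked.

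Most transcripts seen at stage 26 shared the peak of their gene, which the rule on the sum favours. Transcripts under 1 TPM in both stage 26 libraries were left out of the count. Of 126 transcripts of these genes with at least 1 TPM in a stage 26 library, 114 were higher in both stage 26 libraries than in the other 6, and 82 met the factor of 4 by themselves. The remaining 12 belonged to 10 genes. In 4 transcripts some other library lay above both stage 26 libraries. The clearest was 1 of the 3 transcripts of the gene ranked 22. It stood at 7.70 and 6.14 TPM in eggs, 4.24 and 6.93 TPM at the 8-cell stage and only 3.30 and 2.55 TPM at stage 26. A second transcript of that gene lay above stage 26 in egg replicate 2 alone. It was at 2.21 and 3.32 TPM in eggs, 1.6 and 1.2 TPM at the 8-cell stage and 2.85 and 2.95 TPM at stage 26. Nearly all of that gene's rise thus lay in its remaining transcript, which held 89.4% and 94.2% of its stage 26 TPM.

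The leading transcript could be followed into the tadpole in fewer genes. In 26 members it was the same in both stage 26 libraries and the gene held at least 1 TPM in both tadpole libraries. The same transcript led in both tadpole libraries in 15 of the 26 (57.7%), another one led in both in 3, and the tadpole libraries differed from each other in 8. Among 3025 non-members chosen the same way, it was kept in 80.8% and replaced in 3.64%. Members are lower in tadpoles by the rule, and the part of low levels in this difference was not tested. The clearest replacement was in the gene ranked 25: its leading transcript held 75.6% and 75.4% at stage 26, and another held 91.2% and 92.0% in tadpoles, where the whole gene was at 3.88 and 4.84 TPM.

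Several members lay in the same assembly component, the larger unit that the identifiers give above the gene. The 113 genes came from 99 components, 9 of which held 2 or more members, 23 members in all. Assembly genes of 1 component can be pieces or copies of 1 gene and share reads. These members can therefore not be taken as independent, and the number of separate loci may be under 113. Summed per component, 79 of 111904 components passed the rule, and 70 of these held a member.

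One component held 5 of the members. Their stage 26 levels ran from 10.9 to 307 TPM and their tadpole levels from 0.057 to 6.76 TPM, and 4 of the 5 were listed at 0 in all 4 early libraries. The fifth, the most abundant, was at 238 and 307 TPM at stage 26 and at most 1.45 TPM early. The sixth gene of that component missed the rule, at 9.19 and 6.76 TPM at stage 26, 2.75 TPM in egg replicate 1 and 0 in both tadpole libraries. Another component had 3 members and 3 further genes of the same course. The further genes held 15.9 and 5.57 TPM, 21.3 and 7.08 TPM, and 16.4 and 2.49 TPM in the stage 26 libraries, and were listed at 0 in all early libraries. They missed the rule through replicate 2 alone.

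A further component combined opposite courses. Of its 6 genes, 2 were members, at 76.3 and 57.7 TPM and at 46.3 and 16.6 TPM at stage 26, and 2 more had the same course but fell under 10 TPM in replicate 2. The other two were highest in early libraries: one was at 16.1 and 7.30 TPM in eggs, 23.6 and 23.9 TPM at the 8-cell stage, 2.90 and 4.97 TPM at stage 26, and 0.496 and 1.54 TPM in tadpoles. The other was at 7.55 and 3.04 TPM in eggs, 11.0 and 9.11 TPM at the 8-cell stage and 3.39 and 1.26 TPM at stage 26. Pieces of the same component thus stood at their highest before and at stage 26, respectively.

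**Figure D5:**
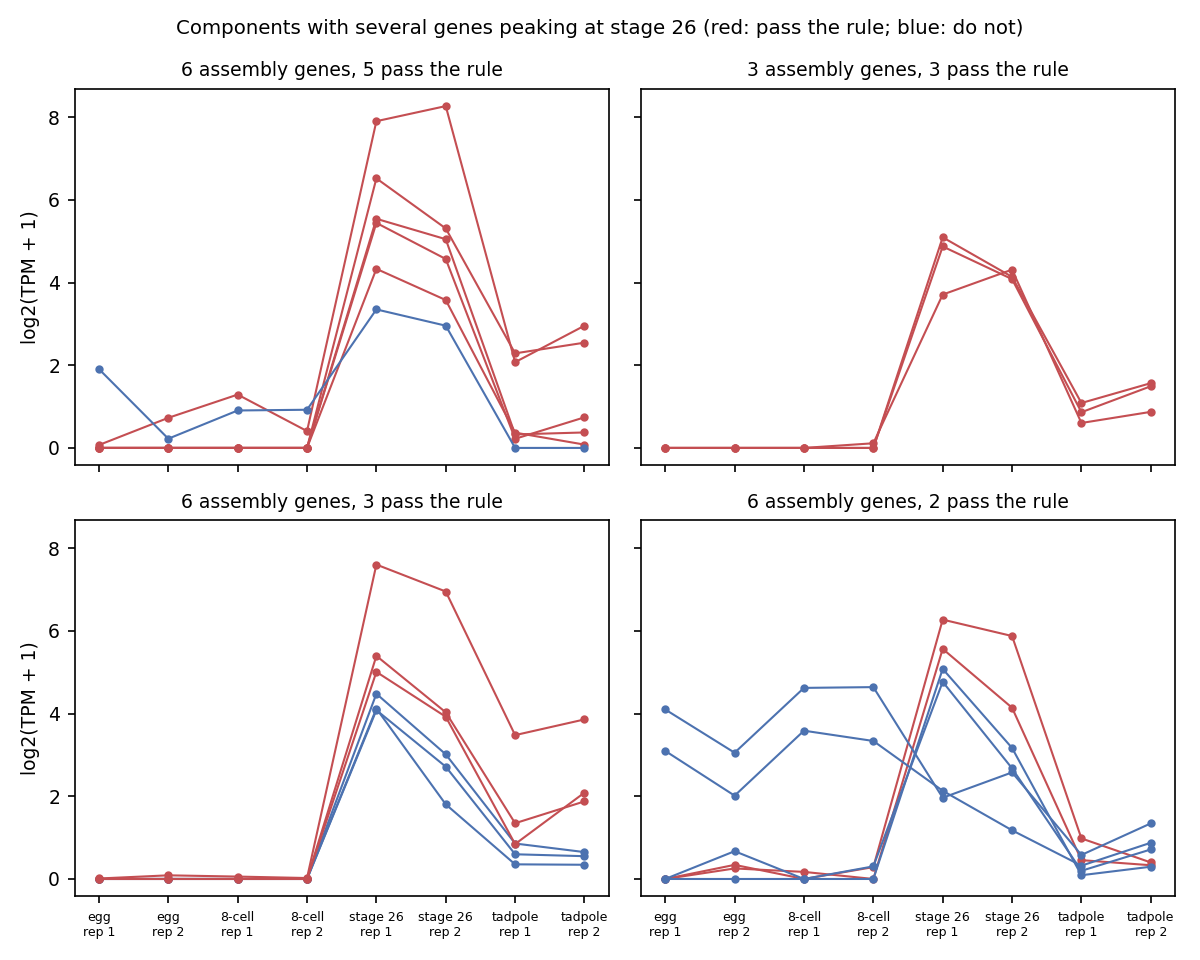
Level of every assembly gene in 4 components by library, as log2(TPM + 1), with genes that pass the rule in red and the others in blue; lines join the libraries of 1 gene and imply no order among replicates. In 3 of the panels all genes are highest at stage 26, and in the panel with 2 members among 6 genes, 2 blue genes are highest in egg or 8-cell libraries.

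The other genes of the members' components, which the rule had not selected, were also compared. There were 133 of them, and 107 held at least 1 TPM in both stage 26 libraries. Of these 107, 56 (52.3%) had both stage 26 libraries above the other 6, against 15.7% of 56746 genes from other components at the same minimum. A factor of 4 was met by 21 (19.6%), against 2.30%; these 21 lay in 14 components and had a median stage 26 mean of 9.04 TPM. Tested with limma over all genes, 63 of 130 (48.5%) were called higher at stage 26 than at the 8-cell stage, where 10.6% of all genes were called, and the median change was 2.03 against 0.57. Without the genes at 0 in each of the 4 early libraries, 32 of 97 (33.0%) were called, against 4.76% of all genes. No gene of the table was called in this step without 8-cell replicate 1, without 8-cell replicate 2 or in a fit to these 2 stages. In the fit to these 2 stages, 74 of the 130 (56.9%) were higher at an unadjusted p under 0.05 (limma), against 23.5% of all genes. Without 8-cell replicate 1 the median change was 1.97 against 0.56 over all genes, and without 8-cell replicate 2 it was 2.05 against 0.63. The genes compared here were picked through the stage 26 level of a member of their component. Some passed the filter on low values through stage 26 alone, and pieces of a component are not independent. Their counts are therefore a description. The genes set beside them were not matched for the number of genes in a component. How far reads shared within a component carry this likeness was not tested.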

How the data were processed

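Poly-A RNA of 8 libraries from whole eggs, embryos or tadpoles was analysed. The authors' deposited values are TPM per transcript, for which the submitters' processing notes name kallisto 0.42.4; which transcript sequences and filters were used is not given in the sources used here. Columns were matched to samples by title, and the source names gave stage and replicate. TPM keeps no read depth, so no counting interval was computed.

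TPM was summed over the transcripts of an assembly gene, the identifier without its isoform number. Assembly genes with at least 1 TPM in at least 2 libraries were tested, 119072 of 145306 (82.0%); all 113 members passed through their stage 26 level. A mean per stage was fitted to log2(TPM + 1) over the 8 libraries (limma 3.58.1, R 4.3.3), with a trend in the prior variance (4 residual and 3.12 prior degrees of freedom), and p-values were adjusted by Benjamini-Hochberg. Differences on this scale understate the change of low genes. On simulated data the fit recovered the sizes of changes but called few except the largest. The sizes were added on the scale of the fit, with normal noise, to genes of higher mean level. Their recovery was therefore built in. That simulation changed far fewer genes than were called in the data. The adjustment of p-values depends on that number, so its rate of calls does not carry over to the data. Summaries used Python 3.11.15, pandas 2.3.3, numpy 2.4.6 and matplotlib 3.10.9.

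The members, lists and tests were chosen with earlier results of these data known. Identifiers were printed for the 2 members with the highest stage 26 mean, the 2 others with the largest fall to the tadpole on the log2(TPM + 1) scale, and the 2 with the largest called rise from the 8-cell stage to the tadpole; none was called lower. Other members described were picked after their values were seen. Gene lists by symbol could not be applied, as the identifiers carry no gene names. Alternatives covered the pseudocount, filter, scaling, prior, fit, replicate block, limits of the rule and each library left out.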

Additional observations from a re-analysis of the deposited data

How the results depend on the processing

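The count of members called higher in tadpoles than in 8-cell embryos (38) went both ways. It was 11 with a pseudocount of 5 (9.73%, against 15.8% of all genes) and 12 with quantile normalization (10.6%, against 9.88%). With the replicate number as a replicate block it was 25 (22.1%, against 17.3%). Without genes at 0 in each of the 4 early libraries, an alternative chosen after seeing the data, it was 19 (25.7%, against 9.39%). A pseudocount of 0.1 gave 56 (49.6%, against 28.0%), a fit to the compared stages 50 (44.2%, against 23.3%) and median-of-ratios scaling 44 (38.9%, against 27.1%). Leaving out each library gave 0 to 46, with 0 without either 8-cell library, 25 without tadpole replicate 1 (22.1%, against 20.1%) and 18 without tadpole replicate 2 (15.9%, against 14.4%). The highest count, 46, came without either stage 26 library, where more of all genes were called higher as well. The median change was 1.31 over the members and 0.75 over all genes there, as in the main fit. The 2 largest rises, which were picked by size, kept their direction in every fit. In the alternatives with no library left out, adjusted p ran from 0.000929 to 0.0291 (limma), as a description. Neither rise stayed called without an 8-cell library, as given above. The counts of members called lower and of members called between eggs and 8-cell embryos were 0 in all 18 alternatives. In the alternatives that kept all 8 libraries, no gene of the table was called between eggs and 8-cell embryos either. In these, 3.73% to 12.6% of all genes were called lower in tadpoles. Other genes of the members' components called higher at stage 26 numbered 63 (48.5%, against 10.6% of all genes). They were 34 with a pseudocount of 5 (26.2%, against 3.76%) and 41 with quantile normalization (31.5%, against 4.89%). With the replicate block they were 30 (23.1%, against 3.64%), and without genes at 0 early 32 (33.0%, against 4.76%). In a fit to the compared stages the count was 0, as it was over all genes. Leaving out each library gave 0 to 70, with 39 without stage 26 replicate 1. Without stage 26 replicate 1 the median change of these component genes from the 8-cell stage was 1.56, against 0.13 over all genes. Without stage 26 replicate 2 it was 2.28, against 0.77. The calls over all genes moved the same way, with fewer higher at stage 26 without replicate 1 and more without replicate 2. The cause of the differences between alternatives was not tested.

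The number of members (113) was 178 with a factor of 3, 68 with a factor of 6, 61 with a minimum of 20 TPM and 300, the most allowed, with a minimum of 5 TPM. Leaving out each library gave 113 to 300. Of the 300 kept without stage 26 replicate 1, 101 were members, and of those kept without replicate 2, 71. Median-of-ratios scaling gave 110 genes, of which 85 were members. The share of RNA at stage 26 (1.29%) was 1.73% with a factor of 3 and 0.740% with a factor of 6. The leading transcript was the same in both stage 26 libraries for 34 of 44 genes with low transcripts left out, and for 29 of 39 with a second transcript of at least 10%.

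The replicate numbers were not taken to pair libraries: differences between replicates 1 and 2 correlated across genes at -0.27 (stage 26 and tadpole) to 0.17 (egg and 8-cell) over the 6 pairs of stages. The block also left fewer calls over all genes: 20583 higher and 4883 lower in tadpoles, and 4333 higher at stage 26. Both named rises stayed called with it. With 2 libraries a stage and unknown depth, low tadpole and early levels are imprecise.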
